A study of Mus musculus with 14 samples.

Results

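The p53-linked miR-34 family was followed in the corpus callosum, the large white matter tract of the brain, of mice fed cuprizone. The members were chosen by name on the arrays, as the mature forms of the family without the star form. They were 4 of the 566 mouse miRNAs on the arrays, namely mmu-miR-34a, mmu-miR-34b-5p, mmu-miR-34b-3p and mmu-miR-34c. The star form mmu-miR-34c* was read beside them as the partner strand of mmu-miR-34c.

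Single-colour Agilent arrays read the small RNA of 1 male mouse each. The 4 groups were 4 untreated control mice, 4 mice after 4 weeks of cuprizone (4wd), 4 mice with 2 days of regular diet after those 4 weeks (2dr) and 2 mice with 2 weeks of regular diet after them (2wr). The feed held 0.2 to 0.4% cuprizone, a copper chelator that kills oligodendrocytes and strips myelin, which returns when the agent is withdrawn. The mice were 7 to 8 weeks old at the start, and the controls covered the ages of the treated mice. No transgene was named for these mice, and their strain was not given in the sources used here.

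The miR-34 family is among the best known miRNA groups under p53, the transcription factor that answers DNA damage and other stress. p53 binds near the gene of miR-34a and near the shared gene of miR-34b and miR-34c and raises their transcription. The mature strands repress mRNAs of cell cycle drivers such as Cdk6 and of survival genes such as Bcl2. miR-34a is made in many tissues, brain included, whereas miR-34b and miR-34c are known best from ciliated epithelia and the germ line.

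A miRNA picks its targets mainly through its seed, the bases 2 to 8, so the mature sequences are shown with the seed in capitals, to show which members share it. They are RefSeq sequences of the build GRCm38.p6, written 5′ to 3′. Of the 4 members, 3 matched the table, as did the partner strand. The member mmu-miR-34c did not, so its sequence is not shown. The first lines are the 5p strands with 1 common seed. The miR-449 strands, of another cluster, carry the same seed.

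mmu-miR-34a (chr4:150068473-150068494, plus strand): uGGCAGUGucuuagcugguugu
mmu-miR-34b-5p (chr9:51103610-51103632, minus strand): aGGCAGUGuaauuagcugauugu
mmu-miR-449a-5p (chr13:113037549-113037570, plus strand): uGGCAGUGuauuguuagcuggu
mmu-miR-449c-5p (chr13:113036008-113036028, plus strand): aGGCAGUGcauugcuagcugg

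The 3p strands have a different seed, which mmu-miR-34b-3p and the partner strand mmu-miR-34c* share with each other.

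mmu-miR-34b-3p (chr9:51103574-51103595, minus strand): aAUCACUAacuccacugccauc
mmu-miR-34c* (mmu-miR-34c-3p in RefSeq; chr9:51103044-51103065, minus strand): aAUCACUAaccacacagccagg

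The hairpins Mir34b and Mir34c lie 451 bases apart on chromosome 9, and Mir34a lies on chromosome 4. The Mir34b hairpin gives both miR-34b members, and it is shown with its 5p and 3p strands in capitals, because they gave different values on the arrays.

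Mir34b (chr9:51103562-51103645, minus strand): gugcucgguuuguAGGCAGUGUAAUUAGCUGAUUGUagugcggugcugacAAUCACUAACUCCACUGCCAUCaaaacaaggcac

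Position by position, mmu-miR-34b-3p and mmu-miR-34c-3p have the same base at 17 of 22 positions. mmu-miR-34a-5p and mmu-miR-34b-5p have the same base at 11 of 22 when no gap is allowed. They are 22 and 23 bases long and share stretches past the seed at shifted positions, so this count understates their likeness. Binding between the probes of mmu-miR-34a and the other 5p strands was not tested. Strands alike in sequence can bind each other's probes, so the values of mmu-miR-34b-3p and mmu-miR-34c* are uncertain as separate measurements. Those of mmu-miR-34b-5p and mmu-miR-34c are taken as uncertain too, though their sequences could not be compared here.

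The arrays detected 181 to 287 mouse miRNAs, and the summed signal of mouse miRNAs ranged from 45664 to 173924, so arrays were scaled before they were compared. A level below is the log2 of a miRNA's total signal over the 75th percentile of its array, a percentile over the 170 miRNAs that all 14 arrays detected. All 4 members were among the 225 miRNAs tested. A miRNA was called changed at a Benjamini-Hochberg adjusted p under 0.05 in limma and at least a 2-fold difference. The arrays lay on 2 slides, 8 arrays on slide 1 and 6 on slide 2, with arrays of all 4 groups on each. The oligodendrocyte miRNAs mmu-miR-219 and mmu-miR-338-3p were detected on all 14 arrays, as were the 7 neuronal miRNAs read below. Their detection therefore cannot tell the corpus callosum from other brain tissue, and the tissue is taken from the labels.

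None of the 4 members was called in any of the 6 comparisons between groups. The background was low: limma called 1 of 225 miRNAs at 4wd against control (0.444%), 2 at 2dr against control (0.889%) and 0 at 2wr against control (0%). It also called 0 (0%) at 2dr against 4wd, 0 (0%) at 2wr against 4wd and 0 (0%) at 2wr against 2dr. At an unadjusted p under 0.05, limma had 23, 27 and 2 miRNAs in the comparisons with control, and 41, 11 and 2 in the last 3. The miRNAs called were mmu-miR-155 at 4wd, and mmu-miR-155 and mmu-miR-146a at 2dr.

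mmu-miR-34a stood 2.02-fold above control at 4wd and 2.19-fold above it at 2dr. Its level was -0.90, -0.27, -0.60 and -1.04 on the control arrays. On the 4wd arrays it was 0.89, 0.35, -0.13 and 0.15. On the 2dr arrays it was 0.96, 0.92, 0.01 and -0.18, and on the 2wr arrays -0.44 and -0.04. All 8 arrays of 4wd and 2dr exceeded the highest control, the lowest of them by a narrow gap, while 1 of the 2 2wr arrays lay among the controls. Among all miRNAs tested, 14 of 225 (6.22%) had their 4wd arrays all above the highest control, and 4 of 225 (1.78%) their 2dr arrays.

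**Figure D1:**
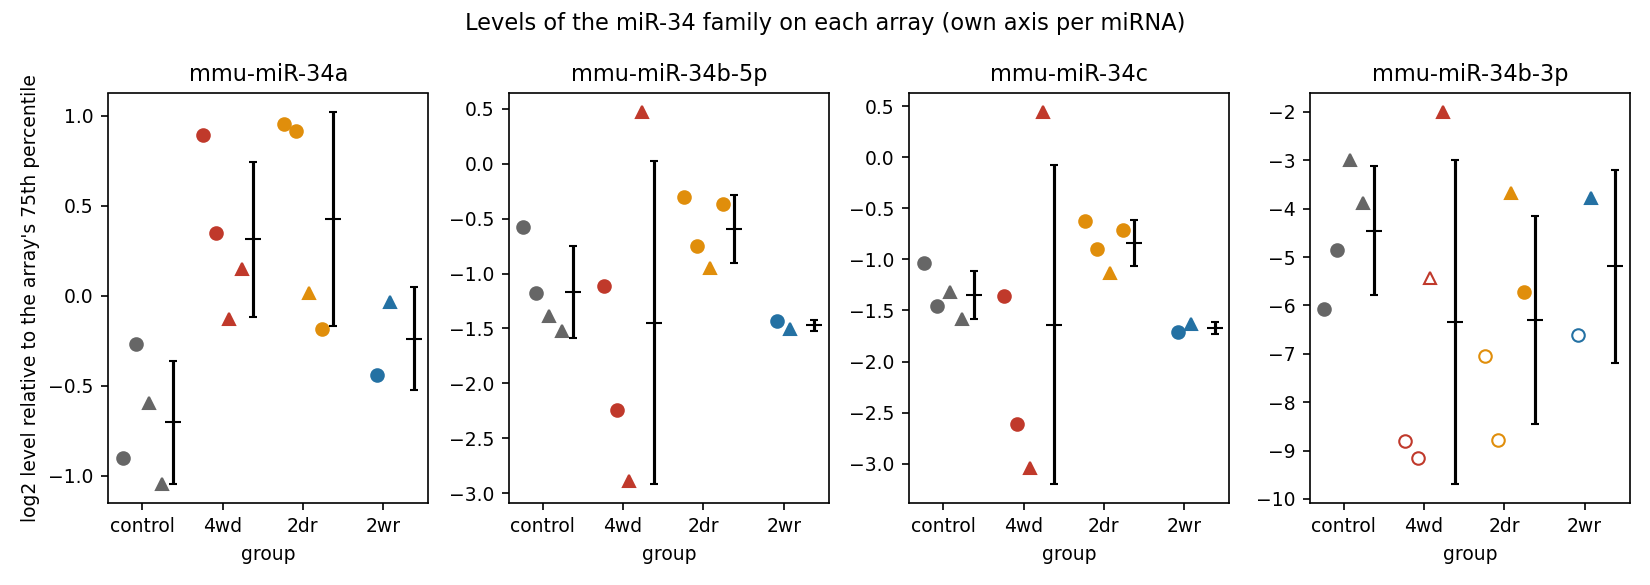
Each point is 1 array, with the group on the x axis and the log2 level relative to the array's 75th percentile on the y axis, which has its own range for each miRNA. Circles are slide 1, triangles slide 2, open symbols arrays on which the miRNA was not detected, and black bars the group mean ± SD. The 4wd and 2dr arrays of mmu-miR-34a lie between -0.18 and 0.96, above the highest control at -0.27, whereas the 4wd arrays of mmu-miR-34b-5p, mmu-miR-34c and mmu-miR-34b-3p spread from the lowest to the highest level of all arrays.

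In order of their mean level of mmu-miR-34a, control mice stood lowest at -0.70 ± 0.34 (SD, n = 4), followed by 2wr mice at -0.24 ± 0.28 (SD, n = 2), 4wd mice at 0.32 ± 0.43 (SD, n = 4) and 2dr mice at 0.43 ± 0.59 (SD, n = 4). At 4wd the log2 difference from control was 1.02 (SE 0.32, 95% confidence interval 0.33 to 1.70), a 2.02-fold level with an interval of 1.26 to 3.26. Its unadjusted limma p was 0.00705, with 1 of the 225 miRNAs below it, and its adjusted p was 0.402. At 2dr the log2 difference was 1.13 (SE 0.32, interval 0.44 to 1.82), a 2.19-fold level with an interval of 1.36 to 3.52. There the limma p was 0.00361, with 3 miRNAs below it, and the adjusted p was 0.201. The exact two-sided permutation p was 0.0286 in both comparisons, the smallest that 4 arrays against 4 can give.

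At 2wr the log2 difference of mmu-miR-34a from control was 0.47 (SE 0.39, interval -0.38 to 1.31), with a limma adjusted p of 0.996 and an exact permutation p of 0.267. The smallest exact p for 2 arrays against 4 is 0.133. The difference of 2dr minus 4wd was 0.11 (interval -0.58 to 0.80), that of 2wr minus 4wd was -0.55 (interval -1.39 to 0.29) and that of 2wr minus 2dr was -0.66 (interval -1.50 to 0.18). Neighbours in the order of the means therefore did not differ beyond their spread.

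**Figure D2:**
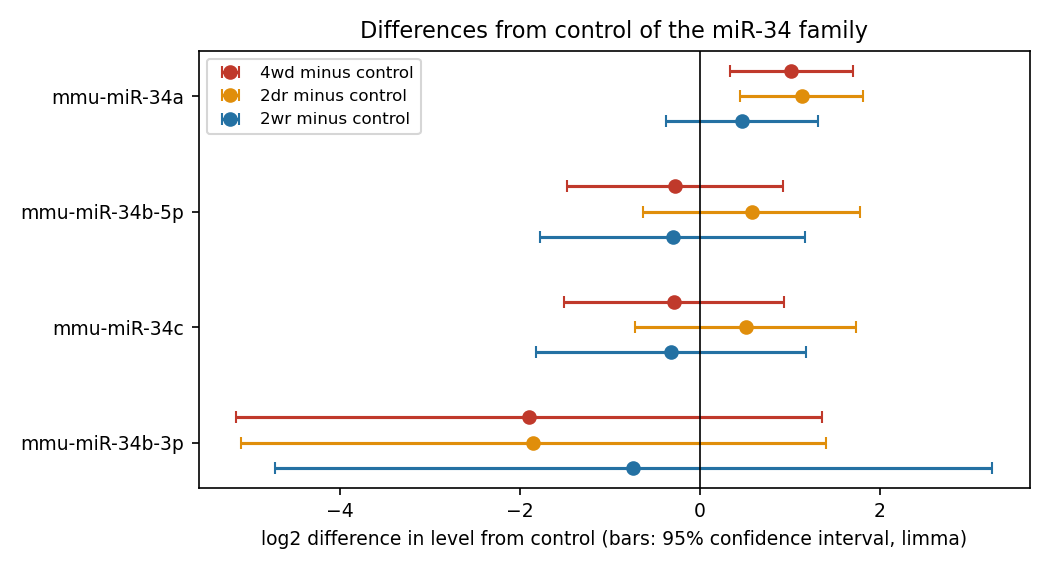
The x axis gives the log2 difference in level from control and the rows give the members, with points for 4wd, 2dr and 2wr and bars for the 95% confidence interval of limma. The intervals of mmu-miR-34a at 4wd (0.33 to 1.70) and at 2dr (0.44 to 1.82) lie above 0, and the other intervals shown contain 0.

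The values of mmu-miR-34a rested on bright spots. Its total signal ran from 198 to 871 in units of the scanner, it was detected on all 14 arrays, and all 140 spots of each of its 2 probes were well above background. Probe 1 gave a log2 difference from control of 0.98 at 4wd and 1.02 at 2dr. Probe 2 gave 1.04 at 4wd and 1.19 at 2dr. Both probes placed 4 of 4 4wd arrays above every control array, while at 2dr probe 1 did so for 3 of 4 arrays and probe 2 for 4 of 4.

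**Figure D3:**
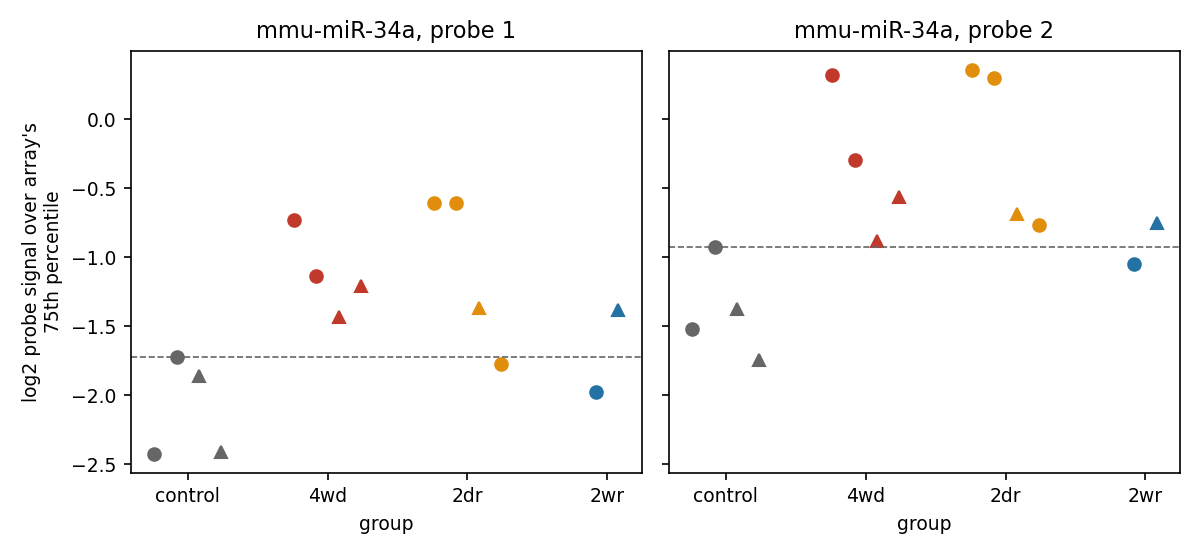
Each point is the signal of 1 probe of mmu-miR-34a on 1 array, as log2 over the array's 75th percentile, by group; circles are slide 1, triangles slide 2, and the dashed line is the highest control. With probe 1, 1 of the 4 2dr arrays, at -1.78, lies below the highest control at -1.72, and with probe 2 all 8 arrays of 4wd and 2dr lie above it.

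Within slide 1, the mean of mmu-miR-34a at 4wd was 1.21 above that of control (2 arrays each) and at 2dr 1.15 above it (3 against 2). Within slide 2 these differences were 0.83 (2 arrays each) and 0.83 (1 against 2). At 2wr, with 1 array a slide, they were 0.15 on slide 1 and 0.78 on slide 2. The sign was the same on both slides in all 3 comparisons.

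The scaling bears on these values. Over all 225 miRNAs, the median log2 difference from control was 0.03 for 4wd, -0.25 for 2dr and -0.08 for 2wr, and relative to it mmu-miR-34a was higher by 0.99, 1.38 and 0.55. With no scaling, the 4wd difference of mmu-miR-34a was 0.04, beside a median of -0.93 over all miRNAs tested, and only 1 of 4 4wd arrays lay above every control. With normexp background correction it was 0.71, beside a median of 0.84, so mmu-miR-34a was then 0.13 below the median. In the values that the authors processed, 3 of 4 4wd arrays and 4 of 4 2dr arrays lay above every control.

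The miRNAs whose level followed that of mmu-miR-34a most closely were mmu-miR-155, mmu-miR-342-5p and mmu-miR-342-3p. Their Pearson r over the 14 arrays, after the mean of each slide was subtracted, was 0.78, 0.75 and 0.70. The arrays share the slide and the scaling, and no test was made of these values. mmu-miR-155, an inflammation-linked miRNA of macrophages and lymphocytes, ranged from -9.15 to -7.83 in control, where it was detected on 0 of 4 arrays, from -6.66 to -5.39 at 4wd and from -6.02 to -4.78 at 2dr. mmu-miR-342-3p and mmu-miR-342-5p are the strands of 1 hairpin. mmu-miR-342-3p ranged from -0.17 to 0.16 in control, from 0.06 to 0.43 at 4wd and from -0.03 to 1.00 at 2dr.

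The markers of myeloid cells were mixed, and their part in the difference of mmu-miR-34a was not tested. Of the 5 miRNAs of the myeloid list, 4 were tested. Of these, mmu-miR-155 alone passed the test, as higher at 4wd and 2dr. It was detected on 1 of 4 4wd, 4 of 4 2dr and 1 of 2 2wr arrays, and entered the tests through the 2dr arrays alone, so the filter itself favoured higher 2dr values. mmu-miR-223, a miRNA of granulocytes and macrophages, had a log2 difference of -0.91 at 4wd (limma adjusted p = 0.553), where it was detected on 0 of 4 arrays against 4 of 4 in control, and of 0.03 at 2dr. It entered the tests through the control arrays alone, so the filter itself favoured higher control values. Of the 4 tested, 3 were higher and 1 lower than control at 4wd, and all 4 were higher at 2dr. The median log2 difference of the 4 was 0.96 at 4wd and 1.50 at 2dr, beside 0.03 and -0.25 over all miRNAs tested. mmu-miR-142-3p, a miRNA of blood-derived cells and microglia, was detected on 2 of 4 control, 4 of 4 4wd and 4 of 4 2dr arrays, and mmu-miR-142-5p on 1 of 14. The log2 difference of mmu-miR-142-3p was 1.69 at 4wd (limma adjusted p = 0.428) and 2.69 at 2dr (adjusted p = 0.201). It entered the tests through the 4wd and 2dr arrays, so the filter favoured higher values there. The summed level of the list ranged from -0.07 to 0.19 in control, 0.18 to 0.50 at 4wd, 0.08 to 1.28 at 2dr and 0.28 to 0.53 at 2wr. With the mean of each slide subtracted, the r of this sum with mmu-miR-34a was 0.72, and with mmu-miR-34c 0.09. The sum was mostly mmu-miR-342-3p, which made up 82.0 to 97.5% of it and was already named as 1 of the 3 miRNAs most like mmu-miR-34a, so the r of the sum adds little to that.

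None of the 4 oligodendrocyte miRNAs, all tested, was called. At 4wd, 3 were lower and 1 higher than control, and at 2dr all 4 were lower. Their summed level ranged from 1.49 to 3.49 in control, 0.98 to 1.83 at 4wd, 1.14 to 2.81 at 2dr and 1.91 to 1.99 at 2wr. With the mean of each slide subtracted, the r of this sum with mmu-miR-34a was -0.74. Of the sum, mmu-miR-338-3p made up 46.1 to 67.1%, and its own r with mmu-miR-34a was -0.75, or -0.58 without the slide step. mmu-miR-338-3p, which promotes the maturation of oligodendrocytes, had log2 differences of -1.17 at 4wd (limma adjusted p = 0.402) and -0.74 at 2dr (adjusted p = 0.454). mmu-miR-138, which acts in the differentiation of these cells, had 0.31 at 4wd and -0.62 at 2dr. The lowest differences of the list were those of mmu-miR-338-5p, -2.49 at 4wd and -2.54 at 2dr. It was detected on 4 of 4 control, 2 of 4 4wd and 1 of 4 2dr arrays. Since mmu-miR-338-5p entered the tests through the control arrays alone, the filter itself favoured its higher control values. In bulk tissue, fewer cells of a type and less RNA per cell cannot be told apart. Neuronal miRNAs, 7 of 7 tested and 0 called, had a median difference of 0.12 at 4wd and -0.19 at 2dr, and their summed level ranged from 4.12 to 5.46 over all groups. The 2 tested red blood cell miRNAs, of 3 listed, had a median difference of -0.36 at 4wd and -0.54 at 2dr, with 0 called. Of these, mmu-miR-451, detected on all 14 arrays, had -0.45 at 4wd and 0.06 at 2dr, and mmu-miR-486 had -0.28 and -1.14. Since mmu-miR-486 entered the tests through the control arrays alone, the filter itself favoured its higher control values.

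The 5p strands of the miR-34b/c cluster moved together and apart from mmu-miR-34a. mmu-miR-34b-5p was -0.57, -1.18, -1.38 and -1.53 on the control arrays. On the 4wd arrays it was -1.12, -2.25, -2.89 and 0.47. On the 2dr arrays it was -0.30, -0.75, -0.95 and -0.37, and on the 2wr arrays -1.43 and -1.51. The 4wd group held both the lowest and the highest of all 14 arrays, a range of 3.36 log2 units or 10.3-fold, whereas the control range was 0.95 and the 2dr range 0.65.

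mmu-miR-34c gave nearly the same picture. It was -1.04, -1.46, -1.32 and -1.59 on the control arrays. On the 4wd arrays it was -1.35, -2.61, -3.04 and 0.44. On the 2dr arrays it was -0.63, -0.90, -1.14 and -0.71, and on the 2wr arrays -1.71 and -1.63. Replicates 2 and 3 of 4wd lay below every other array, and replicate 4 of 4wd above every other array, for mmu-miR-34b-5p as well as for mmu-miR-34c.

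For mmu-miR-34b-5p, control arrays averaged -1.17 ± 0.42 (SD, n = 4), 4wd arrays -1.45 ± 1.47 (SD, n = 4), 2dr arrays -0.59 ± 0.31 (SD, n = 4) and 2wr arrays -1.47 ± 0.05 (SD, n = 2). The log2 difference was -0.28 for 4wd minus control (interval -1.48 to 0.92), 0.57 for 2dr (-0.63 to 1.78) and -0.30 for 2wr (-1.78 to 1.17), with limma adjusted p of 0.960, 0.561 and 0.996. For mmu-miR-34c, the averages were -1.35 ± 0.24 (SD, n = 4) on control arrays, -1.64 ± 1.56 (SD, n = 4) on 4wd arrays, -0.84 ± 0.23 (SD, n = 4) on 2dr arrays and -1.67 ± 0.06 (SD, n = 2) on 2wr arrays. The log2 difference was -0.29 for 4wd minus control (interval -1.51 to 0.94), 0.51 for 2dr (-0.72 to 1.73) and -0.32 for 2wr (-1.82 to 1.18), with limma adjusted p of 0.960, 0.622 and 0.996.

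At 2dr, where mmu-miR-34b-5p and mmu-miR-34c were tightest among the cuprizone groups of 4, 2 of 4 arrays for mmu-miR-34b-5p and 3 of 4 for mmu-miR-34c lay above every control. The exact permutation p against control was 0.0857 and 0.0571. Both 2wr arrays lay below every control array for mmu-miR-34c, as was so for 8 of 225 miRNAs (3.56%), and below every 2dr array for both strands, as was so for 7 of 225 (3.11%). The difference of 2wr minus 2dr was -0.88 for mmu-miR-34b-5p (interval -2.35 to 0.59) and -0.83 for mmu-miR-34c (interval -2.33 to 0.67), and the exact permutation p was 0.133 for each, the smallest these groups allow. The difference of 2dr minus 4wd was 0.85 (interval -0.35 to 2.06) and 0.80 (interval -0.43 to 2.02).

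The 4wd differences of these strands turned on single arrays. Without replicate 4 of 4wd, the difference from control was -0.92 for mmu-miR-34b-5p and -0.98 for mmu-miR-34c. Without replicate 3 of 4wd, the differences were 0.20 and 0.18. Within slide 1 the 4wd arrays lay 0.81 below control for mmu-miR-34b-5p and 0.73 below it for mmu-miR-34c, and within slide 2 they lay 0.25 and 0.15 above it (2 arrays against 2 on each slide). Under normexp background correction the 4wd differences were 0.32 and 0.41.

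mmu-miR-34b-5p and mmu-miR-34c were each other's nearest miRNA among the 225, with r = 0.99 over the 14 arrays after slide centring. Their difference in level had an SD of only 0.15 log2 units over the arrays. mmu-miR-34a, by contrast, had r = 0.14 with mmu-miR-34b-5p and r = 0.16 with mmu-miR-34c. The next miRNAs most like both cluster strands were mmu-miR-375 (r = 0.83 with each) and the partner strand mmu-miR-34c* (r = 0.79 with mmu-miR-34b-5p and 0.77 with mmu-miR-34c). Without slide centring these r were 0.64 and 0.72 for mmu-miR-375 and 0.53 and 0.61 for mmu-miR-34c*. mmu-miR-375, known best from endocrine cells, was detected on 9 of 14 arrays. It entered the tests through the control arrays alone, so the filter itself favoured higher control values. Its undetected levels entered the r as well, the lowest at -9.15 at 4wd. At 4wd it was detected on replicate 4 alone, at -3.33, its highest level on any array.

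**Figure D4:**
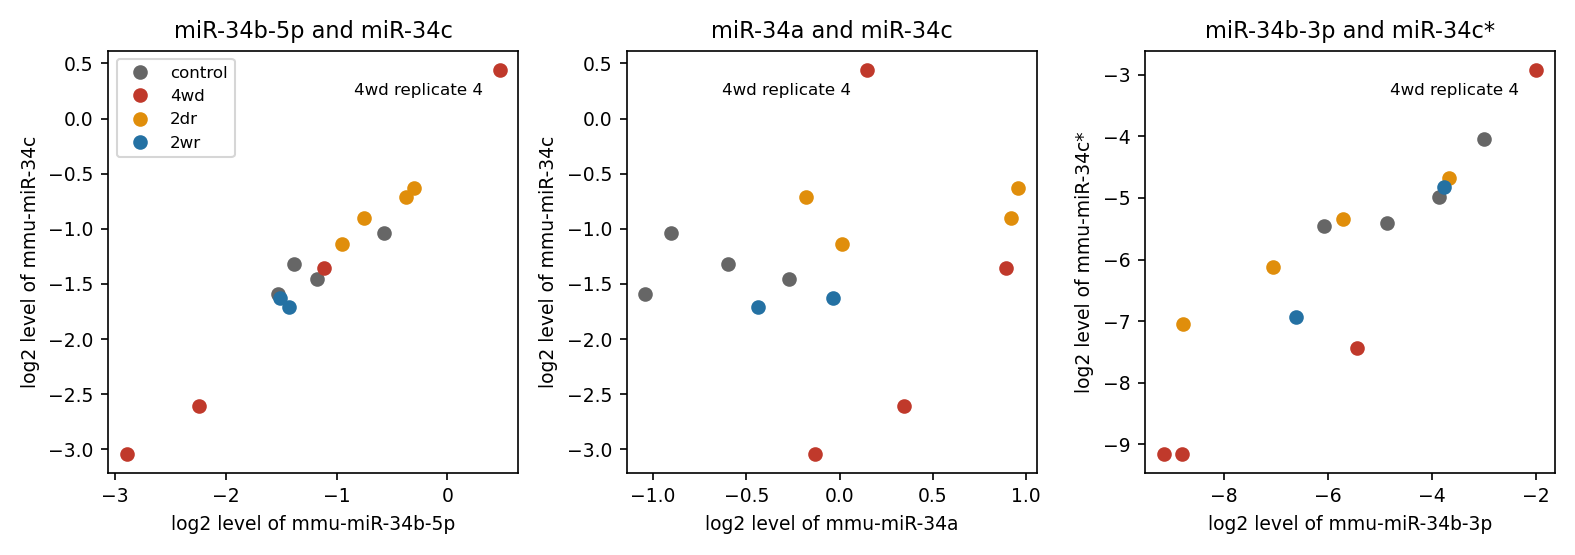
Each point is 1 array, coloured by group, and each axis is the log2 level of 1 strand relative to the array's 75th percentile. mmu-miR-34b-5p and mmu-miR-34c lie along a line (r = 0.99 after slide centring), mmu-miR-34a and mmu-miR-34c do not (r = 0.16), and mmu-miR-34b-3p follows mmu-miR-34c* (r = 0.91). Replicate 4 of 4wd is the highest array for the 4 cluster strands.

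The 3p strand mmu-miR-34b-3p was dim. It was detected on 8 of 14 arrays, namely 4 of 4 control, 1 of 4 4wd, 2 of 4 2dr and 1 of 2 2wr arrays, and its signal never exceeded 86.0. It was -6.08, -4.86, -2.99 and -3.87 on the control arrays. On the 4wd arrays it was -8.80, -9.15, -5.43 and -2.00, where -9.15 is the floor set for low values. On the 2dr arrays it was -7.04, -8.78, -3.67 and -5.71, and on the 2wr arrays -6.60 and -3.78. It entered the tests through the control arrays alone, the one group in which every array detected it, so the filter itself favoured higher control values. The groups overlapped, and replicate 4 of 4wd was again the highest of all arrays.

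For mmu-miR-34b-3p, control arrays averaged -4.45 ± 1.33 (SD, n = 4), 4wd arrays -6.35 ± 3.35 (SD, n = 4), 2dr arrays -6.30 ± 2.16 (SD, n = 4) and 2wr arrays -5.19 ± 2.00 (SD, n = 2). The log2 difference was -1.90 for 4wd minus control (interval -5.15 to 1.36), -1.85 for 2dr (-5.10 to 1.40) and -0.74 for 2wr (-4.72 to 3.25), with limma adjusted p of 0.738, 0.521 and 0.996. The values differed by slide: within each group, slide 2 lay above slide 1 by 2.03 to 5.26. Within slide 1 the difference from control was -3.51 at 4wd and -1.71 at 2dr, and within slide 2 it was -0.28 and -0.24. With normexp background correction the 4wd difference was 1.18 with a limma adjusted p of 0.0370, which turned the direction and passed the test, beside a median of 0.84 over all miRNAs tested in that setting. There 83 of the 225 miRNAs were called at 4wd, so the call is not particular to this strand.

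The partner strand mmu-miR-34c* followed mmu-miR-34b-3p, with r = 0.91 over the 14 arrays. It was detected on 9 of them, on 4 of 4 control and 1 of 4 4wd arrays, and that 4wd array was replicate 4. It too entered the tests through the control arrays alone. Its levels were -5.46, -5.40, -4.04 and -4.99 in control, and -9.15, -9.15, -7.44 and -2.92 at 4wd. Thus 3 of 4 4wd arrays lay below every control and the last above every control. The log2 difference at 4wd was -2.19 (SE 1.14, interval -4.67 to 0.28), with a limma adjusted p of 0.553. Because most of these 4wd values lie at or near the floor, the size of the difference depends on where the floor is set.

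Markers of ciliated and choroid plexus epithelium were read because miR-34b and miR-34c are known from ciliated cells. Of the 11 miRNAs listed, 5 were detected on no array, namely mmu-miR-449b, mmu-miR-449c, mmu-miR-182, mmu-miR-183 and mmu-miR-96. The seed sharer mmu-miR-449a, shown above, was detected on 1 array, replicate 3 of 2dr, at a signal of 15.1. The single miRNA of the list that was detected on all arrays and tested was mmu-miR-204, an abundant miRNA of choroid plexus and pigment epithelium, and it was not called. The summed level of the list ranged from -0.72 to 1.98 in control, -0.84 to 3.43 at 4wd, -1.17 to 1.00 at 2dr and 0.76 to 0.84 at 2wr. Its highest value, like that of the cluster strands, was on replicate 4 of 4wd, where mmu-miR-204 was at 3.40 against -0.88 to -0.08 on the other 4wd arrays. The sum on that array, 3.43, was therefore mostly mmu-miR-204. mmu-miR-211, the close relative of mmu-miR-204, was there at -2.39, also its highest level. Other members of the list did not rise there: mmu-miR-200a, mmu-miR-200b, mmu-miR-429 and mmu-miR-449a were at the floor on every 4wd array. Detection of mmu-miR-200a, mmu-miR-200b and mmu-miR-429 was on 1, 3 and 1 of the 14 arrays, with 1, 2 and 1 of these in control. Over the 14 arrays, after slide centring, the r of mmu-miR-204 was 0.59 with mmu-miR-34b-5p, 0.61 with mmu-miR-34c and 0.03 with mmu-miR-34a. Without slide centring these r were lower, at 0.35, 0.45 and -0.19. After slide centring, the summed level of the neuronal miRNAs had r = -0.61 with mmu-miR-34b-5p and with mmu-miR-34c. Its lowest value, 4.12, was also on replicate 4 of 4wd. The part of mmu-miR-204 or of the neuronal miRNAs in the levels of the cluster strands was not tested.

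The other miRNAs linked to p53 were read from a list of 10. Of these, 6 were tested, 3 (mmu-miR-215, mmu-miR-200c and mmu-miR-141) were detected on no array, and mmu-miR-145 was detected on 6. None of the 6 was called in either direction at 4wd, 2dr or 2wr. At 4wd, 1 of 6 was higher and 5 lower than control, with a median of -0.43 beside 0.03 over all miRNAs tested. At 2dr, 3 were higher and 3 lower, with a median of 0.06 beside -0.25, and at 2wr 2 were higher and 4 lower, with a median of -0.07. Of the 6, mmu-miR-192 and mmu-miR-194 were lower than control at 4wd, 2dr and 2wr. Both entered the tests through the control arrays alone, so the filter itself favoured their higher control values. mmu-miR-107, whose host gene Pank1 is a p53 target, had a difference of 0.21 at 4wd and 0.13 at 2dr. mmu-miR-16, a brake on cyclins and on Bcl2, had -0.57 and 0.15, and mmu-miR-192, known from p53 activation in epithelial cells, -0.10 and -0.02. mmu-miR-143, whose processing p53 promotes, had -0.38 and -1.42. Whether the difference of mmu-miR-34a differed from that of the other p53-linked miRNAs was not tested.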

How the data were processed

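Total RNA of the corpus callosum (100 ng) was hybridized to single-colour Agilent arrays by the authors. In the deposited scanner files, signal intensity is linear, background-subtracted and summed over the probes of each miRNA by Feature Extraction (version 10.5.1.1 per the file headers; the methods name a later one), with a detected or not detected flag and no scaling between arrays. A deposited table of log2 values of the same arrays, which the authors scaled near the 75th percentile over all mouse miRNAs of each array, served as an alternative. No column was left unmapped.

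Signals were divided by each array's 75th percentile over the 170 miRNAs detected on all arrays, floored at 0.00176 (-9.15 as log2) and taken to log2. Control spots and 10 viral miRNAs were left out. Tests covered the 225 of 566 miRNAs that all arrays of 1 or more groups detected. All 14 arrays entered 1 model of the 4 groups in limma 3.58.1 (R 4.3.3), with Benjamini-Hochberg adjustment over the 225. Differences in means of single miRNAs were also tested by exact two-sided permutation in scipy 1.17.1. The fit was tested on simulated data with independent noise on each array. Those data held no slide effect and no floor, so they do not test the fit under either. Each mouse was 1 array, and the number of arrays limits the precision. The closest arrays differed by a median of 0.22 on the log2 scale, so none was taken as a repeat. The 2wr replicate numbers follow the sample titles, since another label numbers them differently.

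Named miRNAs were the members, their partner strand, miRNAs with the same seed, and the 3 most like each member detected on at least 10 arrays, by slide-centred r. Up to 4 examples of each list were named as well, beside list miRNAs named for how they were detected. mmu-miR-146a and the count of called miRNAs are named beside these because the counts were small, after their values were seen. The members and lists were chosen with earlier results of these data known.

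Alternatives were the mean of the spots, normexp background correction (on the median signal of the spots), the 75th percentile over all mouse miRNAs, no scaling, quantile normalization, a floor 4 times lower, a higher floor, no filter, a filter that kept miRNAs detected on every array, the slide as a block with either floor, a robust trend, the replicate block, a fit of only the groups compared, the ANOVA with Tukey test of the methods, the processed values of the authors, leaving out each array, and calls without a minimum fold.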

Additional observations from a re-analysis of the deposited data

How the results depend on the processing

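The differences of mmu-miR-34a from control kept their sign under all 17 alternatives and with each array left out, and were called under none. At 4wd, however, the other filters, floors, blocks and fits left the difference at 1.02, so they could not change its sign. Leaving out a 2dr or 2wr array could not change it either. The settings that could were those of signal, background and scaling, and leaving out a control or 4wd array. Over the 17 alternatives the differences ranged from 0.04 to 1.02 at 4wd, 0.73 to 1.41 at 2dr and 0.05 to 0.64 at 2wr. The lowest came each time with no scaling. Over the arrays left out they ranged from 0.83 to 1.17, 0.95 to 1.33 and 0.26 to 0.67. The limma adjusted p of mmu-miR-34a over these settings ran at 4wd from 0.0616, with normexp, to 0.934, with no scaling. With normexp the median over all miRNAs tested was 0.84 at 4wd, and mmu-miR-34a lay 0.13 below it. At 2dr the limma adjusted p ran from 0.0640, without 2dr replicate 4, to 0.684, without 2dr replicate 2. Of its 4wd arrays, 3 lay above every control with the 75th percentile over all mouse miRNAs and in the processed values of the authors, and 1 with no scaling; of its 2dr arrays, 3 did so with no scaling. Its 2wr minus 4wd difference was 0.0028 with no scaling, and its 2dr minus 4wd difference ranged from -0.065 to 0.314 with an array left out, below 0 without 4wd replicate 3 (-0.037), 2dr replicate 1 or 2dr replicate 2 (-0.052).

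With normexp, differences from control turned for mmu-miR-34b-3p (1.18 at 4wd, 0.16 at 2dr, 0.18 at 2wr), mmu-miR-34b-5p (0.32 at 4wd) and mmu-miR-34c (0.41 at 4wd). With an array left out, the ranges at 4wd were -3.34 to -0.96 for mmu-miR-34b-3p, -0.92 to 0.20 for mmu-miR-34b-5p and -0.98 to 0.18 for mmu-miR-34c, which was 0.03 without 4wd replicate 2. The 2wr range of mmu-miR-34b-3p was -2.15 to 0.67. The higher floor brought its 4wd difference to -0.45. Apart from mmu-miR-34b-3p at 4wd with normexp, no member passed the test under any alternative. The cause of these changes was not tested.

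Calls over all miRNAs at 4wd numbered 83 of 225 with normexp. They numbered 0 with no scaling, quantile normalization, either other floor, the higher floor with slide as a block, no filter, the filter that kept miRNAs detected on every array, the robust trend and the ANOVA. At 2dr they numbered 0 with normexp, no scaling, the ANOVA and the higher floor with slide as a block, and 1 with the higher floor, no filter and the filter that kept miRNAs detected on every array. At 2wr, 1 was called with the 75th percentile over all mouse miRNAs, slide as a block and the processed values. With an array left out the counts ran from 0 to 1 at 4wd, 1 to 2 at 2dr and 0 to 1 at 2wr.

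Replicate numbers are shared between groups, and in 13 of 18 pairs the same-numbered arrays also share a slide. Their deviations from the group means correlated at 0.19 to 0.74 in those 13 pairs and at -0.61 to 0.10 in the 5 pairs on different slides, so the numbers were not used as pairs. With the replicate block, mmu-miR-34a differed from control by 1.02 at 4wd (adjusted p = 0.116), 1.13 at 2dr (adjusted p = 0.0925) and 0.15 at 2wr, and mmu-miR-34b-3p by 1.01 at 2wr, which turned its sign. The counts of calls under the replicate block were 1, 2 and 0, as without it. The number of arrays, and for mmu-miR-34b-3p a signal near background, limit what could be detected.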
